A study of Mus musculus with 3 samples.

Results

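The 6 genes described here, Bmp2, Bmp4, Bmp5, Bmp6, Bmp7 and Gdf6, encode ligands of the bone morphogenetic protein (BMP) family. They were taken by name from 21883 protein-coding genes, and every CHD7 and SOX2 peak within 1 kb of either end of a gene, inside it or within 100 kb of it was assigned to it (mm10). This locus rule took 24 of 33035 CHD7 peaks and 122 of 155548 SOX2 peaks. The peaks come from CUT&Tag, a method that tethers the Tn5 transposase through an antibody so that it cuts near a bound protein, on wild-type mouse otocysts, the epithelial vesicles of the embryonic inner ear. Cells of 34 pooled otocysts of stage E10.5 were divided into 3 samples, which received an antibody against the chromatin remodeler CHD7, an antibody against the HMG-box transcription factor SOX2, or no primary antibody. Each sample gave 1 library, so no comparison has a replicate check, and the library without primary antibody is not analysed here. Read depth is unknown, and the precision of every count is that of the number of peaks. A gene is said to carry CHD7 or SOX2 at a place where the list has a peak, which alone does not show that the gene is regulated or expressed.

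BMP ligands are secreted as dimers, bind pairs of type I and type II serine/threonine kinase receptors and act through phosphorylated SMAD proteins that enter the nucleus with SMAD4. In the developing ear they are known for shaping the semicircular canals and their sensory patches, the cristae, where Bmp4 is a standard marker. Expression of these ligands in other embryonic tissues has long been traced to regulatory DNA far from the genes, and the flanks were examined along with the ends.

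The sample was labelled as otocyst, and the ends of fixed marker genes were examined for the cell types it could hold. Of 10 markers of otic epithelium 5 had a CHD7 peak at an end and 7 a SOX2 peak. All 5 markers of periotic mesenchyme had both, none of 4 endothelial markers had CHD7 and 3 had SOX2, and of 4 blood markers 1 had each. Over all protein-coding genes 30.8% had CHD7 at an end and 59.7% SOX2. For CHD7 and SOX2 in turn, the otic markers had 50% and 70%, and the endothelial markers 0% and 75%. The blood markers had 25% of each. Mesenchyme markers, with 100% of each, were the furthest above the shares of all genes. Peaks do not measure expression, and the part of any cell type in the results below was not tested.

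RefSeq promoter windows (build GRCm38.p6, the build also called mm10) were at hand for 3 of the 6 genes, Bmp4, Bmp5 and Bmp6. The 250 bases before each start site are shown because these genes differed in what lay there: both proteins at Bmp4, CHD7 over the whole stretch and SOX2 at its far edge at Bmp6, and neither at Bmp5. Capitals mark bases covered by a CHD7 peak and a SOX2 peak together. The stretches run 5′ to 3′ on the strand of the gene, at chr14:46390670-46390919 (minus strand) for Bmp4, chr13:38345466-38345715 (plus strand) for Bmp6 and chr9:75775115-75775364 (plus strand) for Bmp5.
Bmp4: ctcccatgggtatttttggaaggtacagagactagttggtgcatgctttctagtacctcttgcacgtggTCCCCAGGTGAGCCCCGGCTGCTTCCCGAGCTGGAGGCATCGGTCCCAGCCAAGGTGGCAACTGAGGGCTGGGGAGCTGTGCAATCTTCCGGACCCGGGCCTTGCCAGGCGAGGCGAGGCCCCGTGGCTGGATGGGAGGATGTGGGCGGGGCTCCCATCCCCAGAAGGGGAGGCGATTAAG
Bmp6: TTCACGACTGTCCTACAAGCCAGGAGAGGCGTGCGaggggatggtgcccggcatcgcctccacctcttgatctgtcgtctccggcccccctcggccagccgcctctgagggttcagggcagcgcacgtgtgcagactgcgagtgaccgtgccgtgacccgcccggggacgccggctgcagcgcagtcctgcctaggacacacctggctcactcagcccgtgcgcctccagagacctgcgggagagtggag
Bmp5: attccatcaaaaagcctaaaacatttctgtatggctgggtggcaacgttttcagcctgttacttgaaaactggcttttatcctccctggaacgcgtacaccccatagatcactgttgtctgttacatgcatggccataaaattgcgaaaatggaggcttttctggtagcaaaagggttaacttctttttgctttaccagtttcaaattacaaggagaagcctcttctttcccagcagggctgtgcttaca

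At Bmp4 both peaks lay over 181 of these 250 bases, and both also covered the start site at 46390669. At Bmp6 the CHD7 peak covered the start site at 38345716 and the full stretch, while the SOX2 peak ended 216 bases before the start site and so reached 35 of the 250 bases; the next SOX2 peak began 585 bases after it. At Bmp5 no peak touched the stretch, and its nearest SOX2 peak began 536 bases after the start site. Counted over windows of 300 bases (250 before and 50 after the start site), the Bmp6 window had 27 CpG dinucleotides and 69.3% G and C, the Bmp4 window 12 and 64%, and the Bmp5 window 4 and 43.3%. Over all 32851 windows, 20.6% had a CHD7 peak, 34.1% a SOX2 peak and 17.5% both. These shares followed CpG number. Windows with 4 to 7 CpGs, as at Bmp5, had CHD7 in 4.13% and SOX2 in 15.7%. Windows with 8 to 20, as at Bmp4, had CHD7 in 29.2% and SOX2 in 48.1%, and windows with 21 or more, as at Bmp6, had them in 50.1% and 68.5%. The SOX core motif CATTGT was searched on both strands and was in none of the 3 windows, against 12.6% of all windows.

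All 6 genes had a peak of at least 1 list at an end, where 37.8% of all protein-coding genes had neither. Bmp4, Bmp6 and Bmp7 had both proteins there, Gdf6 had CHD7 without SOX2, and Bmp2 and Bmp5 had SOX2 without CHD7. CHD7 was thus at 4 of 6 genes where 30.8% of all protein-coding genes had it, SOX2 at 5 of 6 against 59.7%, and both at 3 of 6 against 28.3%. CHD7 without SOX2, as at Gdf6, was found at 2.51% of genes, and SOX2 without CHD7, as at Bmp2 and Bmp5, at 31.4%. With 6 genes and 1 library per antibody these counts are descriptions and carry no test.

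Of the 4 CHD7 peaks at these ends 3 were in the weakest 25% of their list and 1 was at its median. Peak strength is given as the share of peaks of the same list with a lower total signal, the coverage summed over the peak by the authors. The CHD7 peak of Bmp4, at chr14:46389851-46390850, had a total signal of 465 and stood above 10.3% of the CHD7 list. That of Bmp7, at chr2:172940251-172941150, had 496 and stood above 19.7%, and that of Bmp6, at chr13:38344651-38345950, had 510 and stood above 22.7%. That of Gdf6, at chr4:9843801-9845000, had 651, which is the median of the list, and stood above 49.7%. The median CHD7 gene-end peak stood above 59.1% of the list, and 41.1% of all such peaks stood, like these 4, above under 50% of it. With the stronger 50% of peaks 0 of 6 ligand genes kept CHD7 at an end, where 19.2% of all genes did, and 0 of 6 kept both proteins, against 17.7%. The Gdf6 peak is among 127 CHD7 peaks tied at the median, and with tied peaks kept the CHD7 count was 1 of 6, Gdf6, against 19.4%, SOX2 was at 5 of 6, against 48.2%, and both were at 0 of 6, against 17.8%. With the 10000 strongest peaks of each list the counts for CHD7 and for both were also 0, against 13.3% and 9.06% of all genes. This set is a stricter cut for SOX2, with 155548 peaks in its list, than for CHD7, with 33035.

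SOX2 peaks at the ends were stronger within their own list. All 8 stood above at least 52.8% of the SOX2 list, and the median of 66.9% compares with 74.0% for all SOX2 gene-end peaks. The strongest lay at the lower-coordinate end of Bmp2, a ligand needed for canal formation, at chr2:133551901-133553200, with a total signal of 3343, above 96.4% of the list. Bmp4 had SOX2 peaks at both ends, at chr14:46390551-46391350 (total signal 1173) over the start site and at chr14:46381701-46382700 (1056) at the far end. Bmp7 also had both ends occupied, with total signals of 1466 at the lower-coordinate end, chr2:172868701-172869700, and 1056 at the higher, chr2:172939901-172940950. Bmp6 had 2 SOX2 peaks around its start site, at chr13:38344951-38345500 and chr13:38346301-38347450, each with a total signal of 1261. Bmp5 had 1, at chr9:75775901-75776700, with 1056. With the stronger 50% of peaks all 5 genes kept SOX2 at an end, where 47.7% of all genes did, and with the 10000 strongest peaks of the list Bmp2 alone did, where 16.9% of all genes did.

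**Figure D1:**
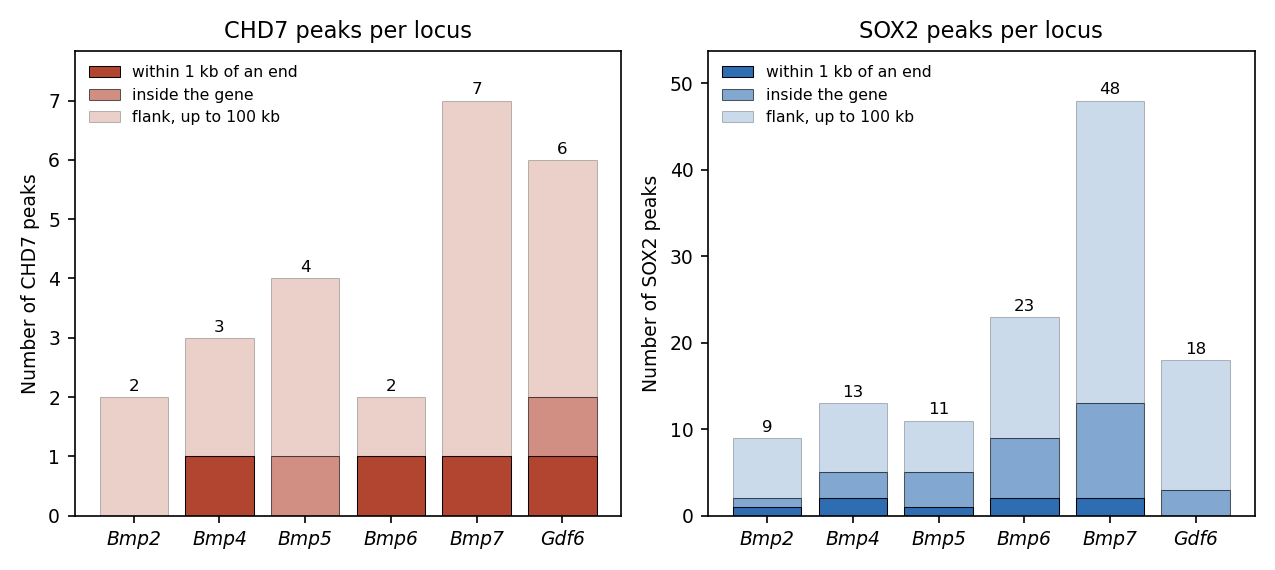
Number of CHD7 peaks (left) and SOX2 peaks (right) in each BMP ligand locus, the gene with 100 kb on each side, stacked by place. Flanks held most peaks of both lists, and the Bmp7 locus held 48 of the 122 SOX2 peaks.

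Of the 24 CHD7 peaks 18 were in the flanks, 2 inside the genes and 4 at ends, or 75%, 8.33% and 16.7%. In the loci of all protein-coding genes, with each peak classed by the gene of the locus, these shares were 80.7%, 11.2% and 8.03%. Of the 122 SOX2 peaks 85 were in the flanks, 29 inside and 8 at ends, or 69.7%, 23.8% and 6.56%, against 81.5%, 14.4% and 4.12% in all loci. Flanks thus held most peaks here as they did in all loci. The number of CHD7 peaks ran from 2 at Bmp2 and 2 at Bmp6 to 3 at Bmp4, 4 at Bmp5, 6 at Gdf6 and 7 at Bmp7. SOX2 peaks numbered 9 at Bmp2, 11 at Bmp5, 13 at Bmp4, 18 at Gdf6, 23 at Bmp6 and 48 at Bmp7, so the order of the genes differed between the lists. Bmp6 had 11.5 SOX2 peaks for each CHD7 peak, and Bmp5 had 2.75.

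Each of the 6 ligand loci held at least 1 place where a CHD7 peak and a SOX2 peak overlapped, as 86.9% of all gene loci did. There were 16 such pairs, 6 of them at Bmp7, 3 at Gdf6, 2 each at Bmp4, Bmp5 and Bmp6, and 1 at Bmp2. Thus 66.7% of the CHD7 peaks overlapped SOX2 (exact 95% binomial interval, Clopper-Pearson, 44.7% to 84.4%), against 65.3% of the whole CHD7 list. Of the SOX2 peaks 13.1% overlapped CHD7 (7.69% to 20.4%), against 14.7% of the whole SOX2 list, and both whole-list shares lay within the intervals. The intervals describe counting error alone and treat peaks as independent, and with 1 library per antibody they hold no spread between samples. The overlaps were 250 to 950 bases long. The regions of maximum signal of both peaks shared a base in 5 of the 16 pairs. These 5 were among the 11 pairs in flanks, at Bmp4, Bmp7 and Gdf6. The share of such pairs in the whole lists was not determined.

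The strongest pair of the 6 loci lay far from its gene. In the lower-coordinate flank of Bmp2, at a distance of 75.4 kb, a CHD7 peak at chr2:133475601-133476750 (total signal 2737, above 96.9% of the list) overlapped a SOX2 peak at chr2:133476001-133476650 (total signal 4076, above 97.6%). This was the single CHD7 peak of these loci among the strongest 10% of its list, and 32.4% of all gene loci of this kind held such a peak. No other protein-coding gene had any part within 100 kb of Bmp2, and the peak had no nearer protein-coding gene. The other CHD7 peak of Bmp2, at chr2:133565551-133565950, was 2.65 kb beyond the higher-coordinate end, had a total signal of 442 and stood above 3.1% of the list. Bmp2 had no CHD7 peak at its ends or inside. Its strongest SOX2 peak inside the gene was at chr2:133553851-133555350 (total signal 2111, above 90.5%).

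Gdf6, a ligand known for its part in joint and skull development, showed a like arrangement on its other side. At 65.3 kb beyond the higher-coordinate end a CHD7 peak at chr4:9927601-9928500 (total signal 1353, above 87.3% of the list) overlapped a SOX2 peak at chr4:9927401-9928450 (total signal 3079, above 95.7%). Inside Gdf6, near the higher-coordinate end, a CHD7 peak at chr4:9859151-9860450 (total signal 597, above 41.0%) met the highest-ranking SOX2 peak within it, at chr4:9859001-9860100 (total signal 2229, above 91.5%). At 92.1 kb on the lower-coordinate side, peaks with the same borders in both lists, chr4:9752051-9752300, stood above 34.6% of the CHD7 list and 0.455% of the SOX2 list. The CHD7 peak at the end of Gdf6 had no SOX2 peak on it. A window of 2 kb in place of 1 kb added a SOX2 peak to the ends of Gdf6, at chr4:9860851-9861100.

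At Bmp5, the gene mutated in the short ear mouse, the strongest CHD7 peak was inside the gene. It lay 57.7 kb from the start site, at chr9:75833051-75833850, with a total signal of 1139, above 82.8% of the list, and it overlapped a SOX2 peak at chr9:75833001-75833300 with a total signal of 968, above 46.6%. Whether this place is exonic or intronic was not determined. The other pair of Bmp5 lay 53.5 kb on the lower-coordinate side, at chr9:75720801-75721850 for CHD7 (total signal 674, above 52.6%) and chr9:75721201-75721950 for SOX2 (2170, above 91.1%). That pair was nearer to Scg3, which encodes a secretory granule protein, than to Bmp5. The 2 CHD7 peaks beyond the higher-coordinate end had no SOX2 peak on them, and that flank held no SOX2 peak at all within 100 kb.

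At Bmp4, the pair at the start site was weaker than a distal one. At 73.6 kb beyond the far end, at chr14:46309401-46309900, a CHD7 peak (total signal 683, above 54.1%) overlapped a SOX2 peak at chr14:46309451-46309900 (total signal 2580, above 93.8%), and their regions of maximum signal shared a base. The third CHD7 peak of Bmp4, at chr14:46436251-46437350, overlapped no SOX2 peak. The gene itself, 7.14 kb long, held 3 SOX2 peaks inside and 2 at its ends, and with 2 peaks in the flank these formed a group of 7 over 17.6 kb in which no gap exceeded 10 kb. The strongest of the 3 inside was at chr14:46385301-46386300 (total signal 1701, above 84.9%). Groups of at least 5 peaks joined in this way made up 8.29% of all groups in the SOX2 list. Single peaks were counted as groups, and the median group had 1 peak. The share of all SOX2 peaks or of all gene loci with such groups was not determined and can be larger. No other protein-coding gene lay within 100 kb of Bmp4.

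Bmp6, a ligand known for its role in iron balance, had 2 CHD7 peaks, both overlapped by SOX2 and both near its start. The first covered the start site as described above. The second, at chr13:38338101-38338700, was 7.02 kb upstream (total signal 496, above 19.7%) and overlapped a SOX2 peak of high rank in its own list, at chr13:38338101-38338800 (total signal 2346, above 92.5%). The 154.6 kb gene body held 7 further SOX2 peaks and no further CHD7 peak, and the strongest of these SOX2 peaks was at chr13:38369001-38369600 (total signal 1320, above 73.8%). The strongest SOX2 peak of the flanks, at chr13:38558651-38559750 (total signal 2639, above 94.1%), was nearer to Txndc5, a protein disulfide isomerase gene that overlaps the far end of Bmp6, than to Bmp6. It belonged to a group of 7 SOX2 peaks over 42.95 kb, at chr13:38527401-38570350, in which no gap exceeded 10 kb. Of the 23 SOX2 peaks of the locus 12 had Bmp6 as their nearest protein-coding gene.

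Bmp7, a ligand also required in kidney and eye development, had the most peaks of both lists. Its 48 SOX2 peaks comprised 2 at the ends, 11 inside, 20 in the lower-coordinate flank and 15 in the higher-coordinate flank. The strongest inside the gene was at chr2:172900501-172901500 (total signal 1759, above 86.6%). Of the 48, 42 fell into 5 groups of at least 5 peaks with no gap over 10 kb. How usual this is among SOX2 peaks was not determined. The densest group had 10 peaks over 18.9 kb in the lower-coordinate flank, at chr2:172826251-172845100. Its median peak stood above 29.5% of the list, so it was made mostly of weak peaks, while the 6-peak group at chr2:172787201-172805400 had a median of 76.7%. CHD7 overlapped SOX2 in each of these groups, at chr2:172841551-172842450 (total signal 510, above 22.7%) and at chr2:172804651-172805150 (597, above 41.4%). The strongest pair of the locus, at chr2:172999701-173000700 for CHD7 (total signal 738, above 60.3%) and chr2:172999701-173000500 for SOX2 (2229, above 91.7%), lay at an end of Rae1, an mRNA export factor gene, 59.4 kb from Bmp7. The last CHD7 peak of the locus, at chr2:173019951-173021250, was within 1 kb of an end of Rbm38, which encodes an RNA-binding protein. The strongest SOX2 peak of the locus, at chr2:173031551-173033800 (total signal 3753, above 97.2%), was also at Rbm38. Of the 48 SOX2 peaks 35 and of the 7 CHD7 peaks 3 had Bmp7 as their nearest protein-coding gene.

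**Figure D2:**
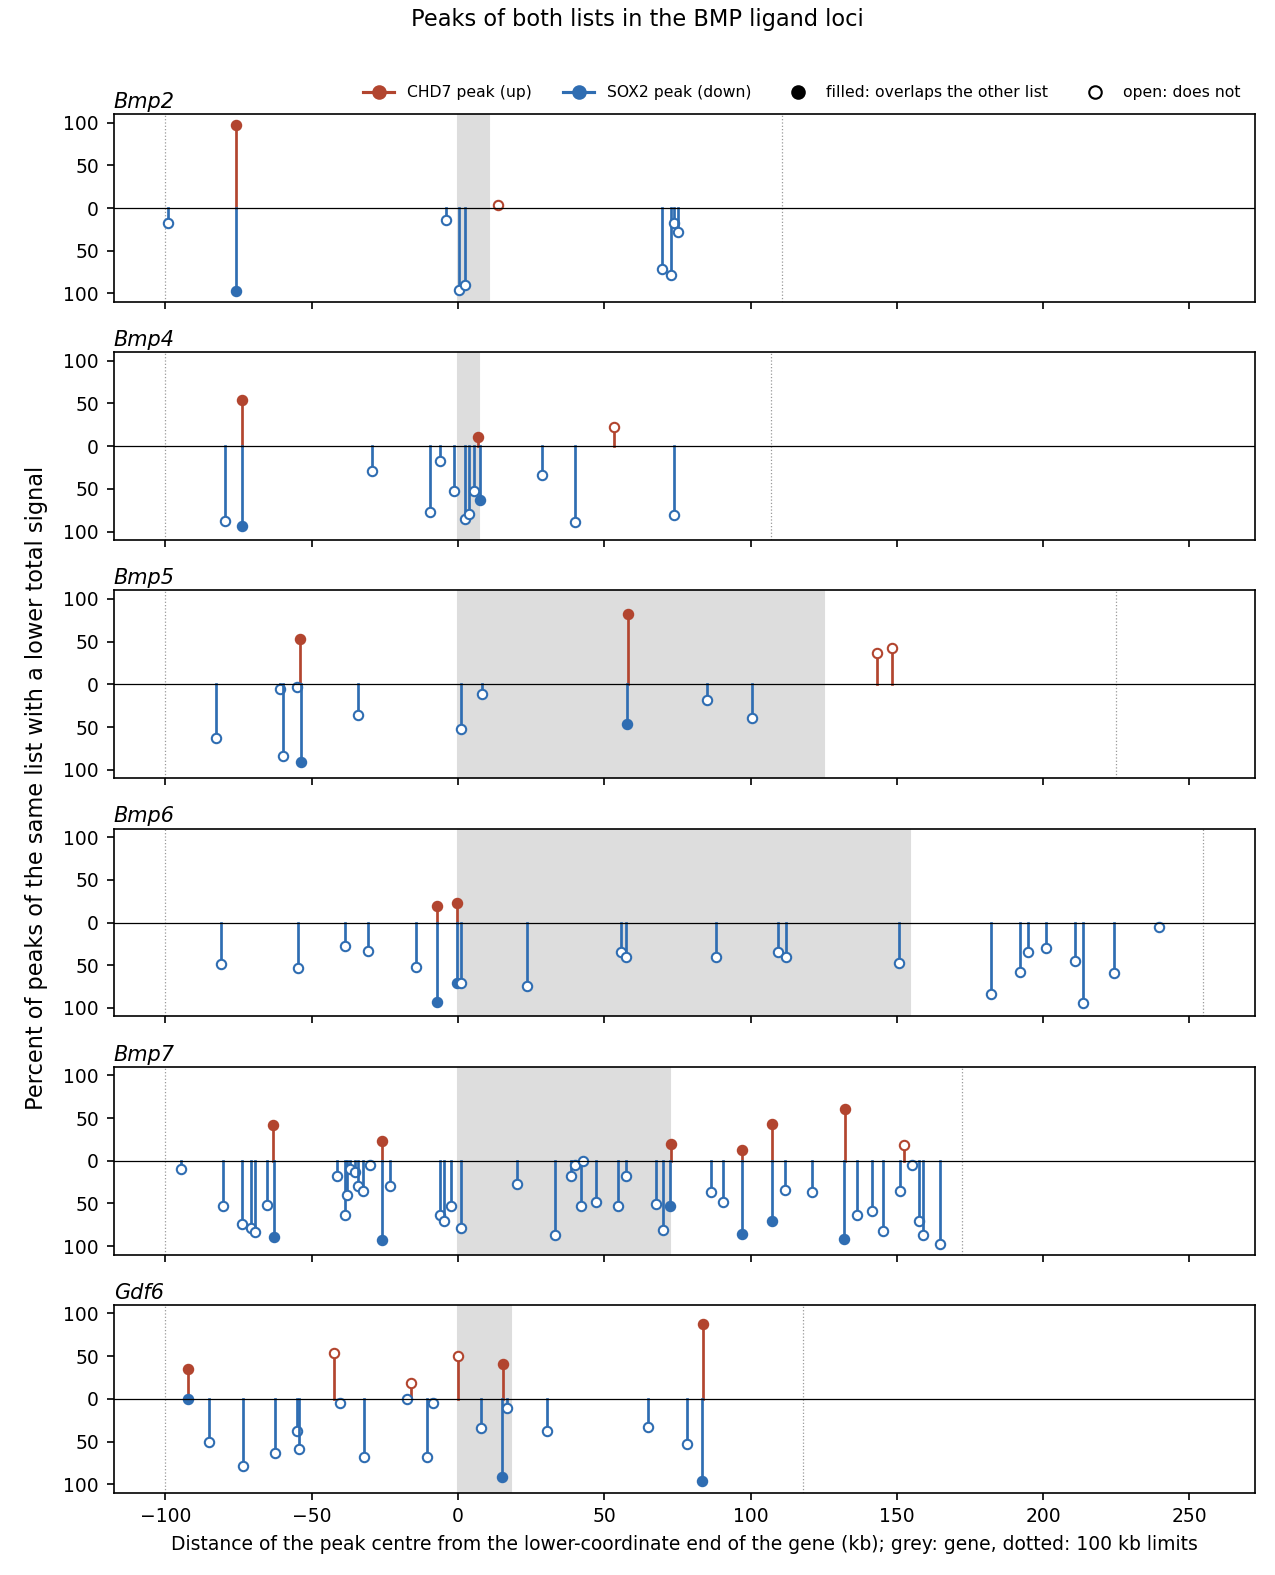
Peaks of the 6 loci by distance of the peak centre from the lower-coordinate end of the gene (kb, grey band: gene). Height is the percent of peaks of the same list with a lower total signal, CHD7 upward and SOX2 downward, and filled points overlap a peak of the other list. The strongest CHD7 peaks of Bmp2, Bmp5 and Gdf6 lie 75.4 kb from the gene, inside it and 65.3 kb from it.

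In 5 of the 6 loci the strongest CHD7 peak lay away from the ends of the gene, as in 89.7% of the 20246 gene loci with a CHD7 peak. At Bmp6 the peak at the start site (above 22.7%) and the upstream one (above 19.7%) were close. The CHD7 peaks in the flanks had a median of 39.0%, against 21.2% for the 4 end peaks. Over all gene loci, classed in the same way by the gene of the locus, the order was the other way, with medians of 51.3% in flanks and 60.7% at ends. Flanks can take in the ends and bodies of other genes, as at Rae1 and Rbm38. For SOX2 the ligand loci had medians of 66.9% at ends, 39.8% inside and 52.8% in flanks, and all gene loci had 74.3%, 47.8% and 52.8%. Each locus held a SOX2 peak among the strongest 10% of its list, which was so for 79.2% of all gene loci.

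SOX2 peaks that met CHD7 were stronger than those that did not. The 16 shared SOX2 peaks stood above a median of 90.1% of the list, and 8 of them were among its strongest 10%. The 106 unshared ones had a median of 48.5%, and 4 of them were among the strongest 10%. The same gap ran through the whole SOX2 list, with medians of 84.7% and 39.8%. Shared and unshared CHD7 peaks of the ligand loci had medians of 41.2% and 29.7%, against 59.9% and 34.0% in the whole list. Both peaks of a pair were in the stronger 50% of their lists in 5 of the 16 pairs, or 31.2%, against 53.2% of the 21586 shared CHD7 peaks. The 8 CHD7 peaks without SOX2 were 0.451 to 47.2 kb from the nearest SOX2 peak, with a median of 8.45 kb, against 4.2 kb for the 11449 unshared CHD7 peaks of the list.

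Peaks also differed in shape. The 4 CHD7 peaks at ends were low, with maximum coverage signals of 0.82 to 1.18 over widths of 900 to 1300 bases. Their median width of 1100 bases was that of all CHD7 gene-end peaks. This shape was not particular to the ends. The CHD7 peak at chr4:9859151-9860450 inside Gdf6, for example, was 1300 bases wide with a maximum of 1.09. One at chr9:75720801-75721850 in the Bmp5 flank was 1050 bases wide with a maximum of 1.18. The CHD7 peak at chr2:173019951-173021250 in the Bmp7 flank was also 1300 bases wide with a maximum of 1.09, but it lay at an end of Rbm38. The pair in the Bmp2 flank was tall, with a maximum of 6.19 over 1150 bases for CHD7 and of 17.6 over 650 bases for SOX2, the highest of both lists in these loci. The CHD7 peak inside Bmp5 reached 5.92. The SOX2 peak at the end of Bmp2 was 1300 bases wide with a maximum of 4.69. Over the whole lists the median width at gene ends was 1100 bases for CHD7 and 800 for SOX2, and between genes 950 and 600. Signal scales differ between the lists and heights are compared within a list.

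**Figure D3:**
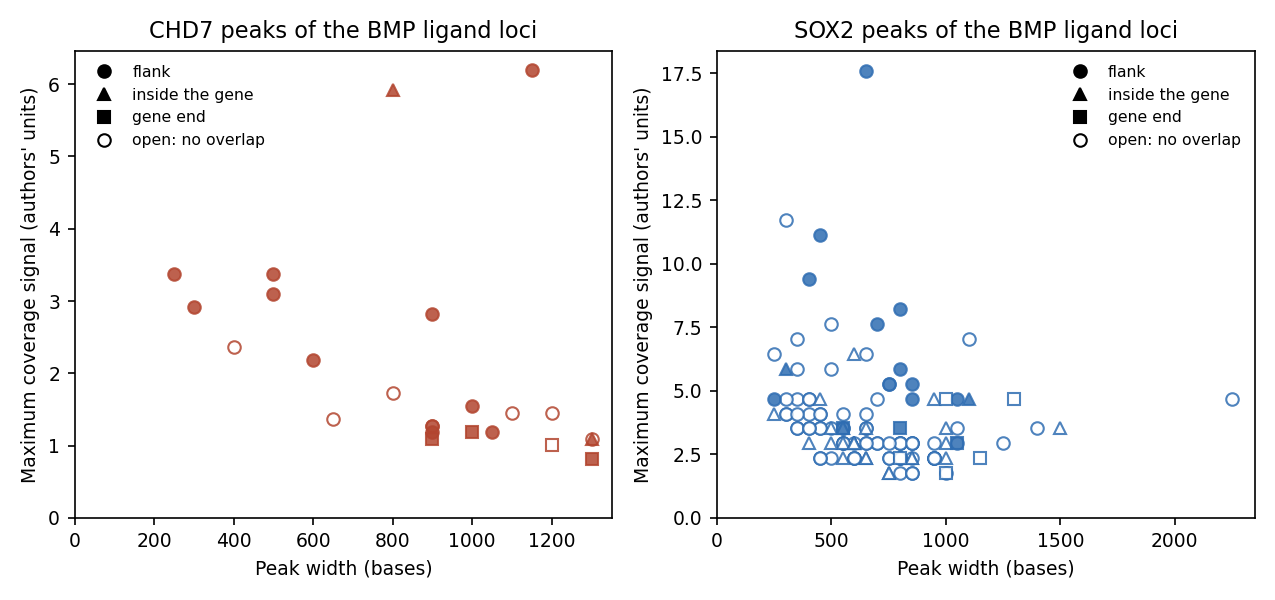
Maximum coverage signal (authors' units, linear axis) against peak width (bases) for the CHD7 peaks (left) and SOX2 peaks (right) of the ligand loci, by place, with filled symbols for peaks that overlap the other list. CHD7 peaks at gene ends lie at the wide and low side, together with several CHD7 peaks away from the ends. The tallest peaks are the pair in the Bmp2 flank, with maxima of 6.19 and 17.6.

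Per length of locus, 4 of the 6 ligand genes were below the median of all genes in the CHD7 list and 4 in the SOX2 list. The median density over the 6 loci was 1.34 CHD7 peaks per 100 kb, against 1.46 over the loci of all 21883 protein-coding genes, and 6.38 SOX2 peaks per 100 kb, against 7.32. For CHD7, Gdf6 (2.75 per 100 kb) and Bmp7 (2.57) were above the median, as 50% of all loci are by definition, and above the upper quartile of 2.37, as 25% are. Bmp4 (1.45), Bmp5 (1.23) and Bmp2 (0.949) were between the quartiles, and Bmp6 (0.564) was below the lower quartile of 0.881. For SOX2, Bmp7 (17.6 per 100 kb) exceeded 97.1% of all gene loci, and Gdf6 (8.26), Bmp6 (6.49) and Bmp4 (6.28) were between the quartiles of 4.97 and 10.47. Bmp2 (4.27) and Bmp5 (3.39) were below the lower quartile. Loci of neighbouring genes overlap, and their densities are not independent.

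**Figure D4:**
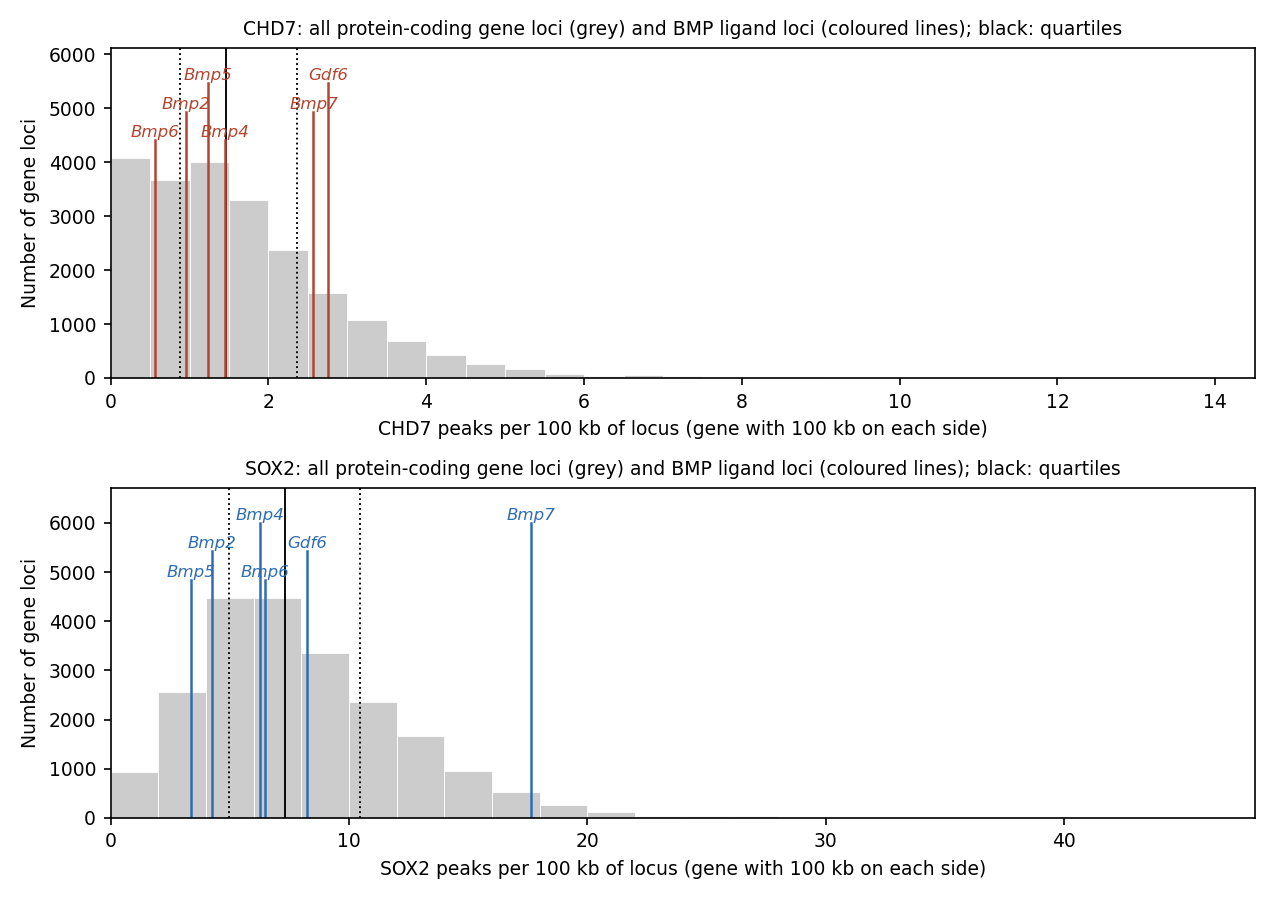
Peaks per 100 kb of locus for CHD7 (top) and SOX2 (bottom), with a histogram of all protein-coding gene loci in grey, its quartiles in black and the 6 ligand loci as coloured lines. For SOX2, Bmp7 is above 97.1% of loci and the other 5 are below the upper quartile. For CHD7, Bmp7 and Gdf6 are above the upper quartile of 2.37 and the other 4 below the median.

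Other genes were taken from a list of 50 that does not hold the 6 ligands. It holds receptors, signalling SMADs, antagonists and inhibitors, targets and 15 further ligands. Whether each of those ligands acts through the BMP pathway was not examined. Of these 50 genes 23 had CHD7 at an end, 34 had SOX2 and 20 had both, beside 30.8%, 59.7% and 28.3% of all genes. The 15 further ligands carried CHD7 at 4 and SOX2 at 8. Gdf9, an oocyte factor gene, and Gdf15 were among the 3 with both, and Bmp10, a heart ligand gene, was among the 6 with neither. Of the 7 receptors 4 had CHD7 and 6 had SOX2. The type II receptor gene Bmpr2 had both, and the type I receptor gene Bmpr1a had neither. Of the 4 signalling SMAD genes 1, Smad4, had CHD7, and 3 had SOX2. Antagonists and inhibitors had CHD7 at 8 of 18 and SOX2 at 12, with both at Nog, which encodes noggin, and Smurf1, a ubiquitin ligase gene, and neither at Cer1. All 6 target genes had CHD7 and 5 had SOX2. Their summed CHD7 end signals ran from 679 at Id4 to 3138 at Id3, with 1271 at Msx1. Those of the 4 ligand genes with CHD7 ran from 465 to 651. Among receptor and antagonist genes some sums lay within the ligand range and others above it, while that of Grem1 (451) lay below it. The sums of all protein-coding genes were not compared. The difference between ligands and targets was not tested.

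**Figure D5:**
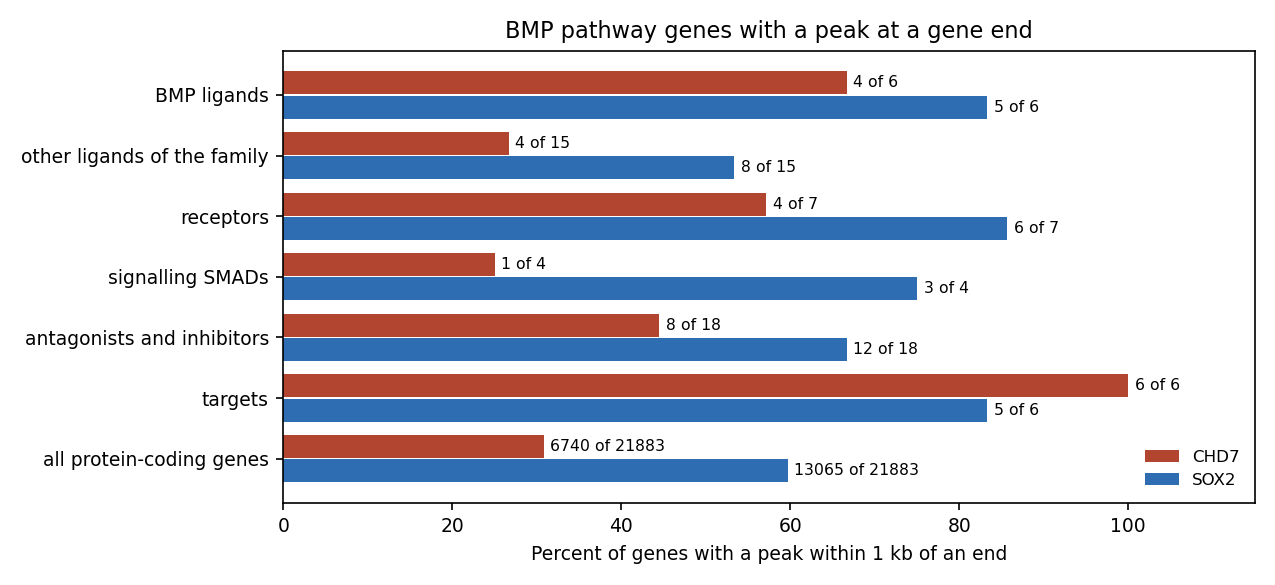
Percent of genes with a CHD7 or SOX2 peak within 1 kb of an end, for the 6 BMP ligands, 5 other groups of the pathway and all protein-coding genes, with the numbers of genes beside the bars. CHD7 is at 4 of 6 ligands, 6 of 6 targets and 6740 of 21883 genes.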

How the data were processed

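CUT&Tag peak lists of 2 libraries (CHD7 and SOX2, 1 each) from 34 pooled otocysts were used. Per the submitters' processing notes, the reads were handled with Bowtie2, deepTools and SEACR on mm10. Versions, thresholds, signal scaling and any use of the control library were not given in the sources used here. Each deposited list holds, for each peak, coverage signal summed over the peak and its maximum signal, as the authors deposited them, with 1 list per library. Signal was used only within a list.

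Gene borders came from a RefSeq table of GRCm38.p6 (21883 protein-coding genes on chromosomes 1 to 19, X and Y). It gives outer borders and no strand; the strand and start site came from the promoter table and were at hand for 3 members. Peaks took the first fitting class of 3: within 1 kb of either end, inside the gene, within 100 kb. Peaks were shared from 1 base in common. Coordinates count from 1. Intervals are exact binomial (Clopper-Pearson) at 95%. No test was made, since each antibody has 1 library.

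All 6 members are named, with every end peak, the strongest peaks inside and in the flank, and the best shared pair of each. Pathway genes were named by role, up to 2 with both proteins and 1 with neither. Members, lists and rules were chosen with earlier results of these data known. Alternatives were stricter peak sets, other end windows, 50 kb flanks, nearest-gene assignment, other rules for a shared peak and, added after seeing the data, leaving out Bmp7 and keeping peaks tied at the median. The methods were tested on 300 simulated peaks, of which 300 were assigned to the planted class. These were planted away from class borders at long genes without close neighbours. Short genes such as Bmp4 and overlapping genes such as Bmp6 and Txndc5 were not simulated. Scripts ran on Python 3.11.15 with pandas 2.3.3, numpy 2.4.6, matplotlib 3.10.9 and scipy 1.17.1.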

Additional observations from a re-analysis of the deposited data

How the results depend on the processing

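Of 45 alternative values 26 stayed within 1.5 times of the count given, or within the binomial interval of the share, and 19 moved. With the stronger 50% of each list, the number of ligand genes with CHD7 at an end fell from 4 to 0 and with both from 3 to 0, the loci above the median CHD7 density from 2 to 1, CHD7 peaks from 24 to 7, SOX2 peaks from 122 to 66, and the share of SOX2 peaks on CHD7 to 7.58%. With peaks tied at the median kept, which was chosen after seeing the data, 1 gene (Gdf6) had CHD7 at an end and 0 had both. With the 10000 strongest peaks the counts were 0 genes with CHD7, 1 with SOX2 and 0 with both at an end, 1 locus above the median CHD7 density, 3 CHD7 and 6 SOX2 peaks, and a SOX2 share of 33.3% (2 of 6). SOX2 peaks numbered 78 with flanks of 50 kb and 74 without the Bmp7 locus. Requiring the maximum-signal regions to share a base left 20.8% of CHD7 and 4.1% of SOX2 peaks shared. The whole-list shares of overlap under this rule and with the stricter peak sets were not determined. Fewer peaks or shorter flanks lower the counts by construction, while the cause of the other shifts was not tested. End windows of 500 bases or 2 kb left CHD7 at 4 genes. They gave SOX2 at 4 and 6, without Bmp5 at 500 bases and with Gdf6 at 2 kb. A wider window can only keep or raise such counts, and the shares of all genes with these windows were not determined. Depth is unknown, so the absence of a peak is not shown to be an absence of binding.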

Other observations

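Some pairs in the ligand loci also lay at noncoding RNA genes. The paired peaks upstream of Bmp6 fell inside Gm47990, a long noncoding RNA gene 1.59 kb from Bmp6, whose end lies within 1 kb of the CHD7 and SOX2 pair at the Bmp6 start. The CHD7 peak at the start of Bmp4 was also within 1 kb of an end of the long noncoding RNA gene Gm15222, which lies inside Bmp4. The pair 92.1 kb from Gdf6 was within 1 kb of an end of the long noncoding RNA gene Gm34947, and Gm52538 near Bmp7 held 1 CHD7 and 1 SOX2 peak. At Bmp2 the weak CHD7 peak beyond the gene overlapped no SOX2 peak. It was within 1 kb of an end of the microRNA gene Mir3090, which lies 1.81 kb from Bmp2. Other noncoding RNA genes of the loci, such as Gm14100 at Bmp2 and Gm39373 at Bmp5, had no peak of either list at an end or inside. These genes were looked up after the peaks had been seen. The share of all pairs that lie at noncoding RNA genes was not determined.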
